A study of Mus musculus with 9 samples.

Results

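The expression profile of the control cells of a Yap/Taz knockout study in mouse embryonic stem cells was described across genes, from the 3 libraries titled control among the 9 of the series. Of the 38940 genes in the deposited table, 22490 had a value above 0 in at least 1 of these 3 libraries. Embryonic stem cells are pluripotent cells derived from the inner cell mass of the blastocyst. The control cells carried floxed Yap and Taz alleles (Yapfl/fl/Tazfl/fl), of the genes Yap1 and Wwtr1. They were titled control, and whether the alleles were unrecombined was not checked here. Per the labels' protocols the lines grew on fibronectin, without mention of feeder cells, in N2B27 medium to which 3 factors were added, PD0325901 (0.4 µM, a MEK inhibitor), CHIR99021 (3 µM, a GSK3 inhibitor) and Lif (4 ng/ml), together called 2i/Lif. The protocol, written for all lines, also describes a piggyBac Cre-ERT2 transgene under the CAG promoter and recombination with 500 nM 4-OHT. It is not stated in the labels if control cells carried the transgene or received 4-OHT, how many lines or clones the 3 libraries came from, or whether they were separate cultures. The spread between them may therefore be technical.

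In 2i/Lif, Lif acts through the gp130 and LIF receptors and JAK kinases on STAT3, while the inhibitors block differentiation signals through MEK/ERK and lift the repression of beta-catenin by GSK3. Cells in this medium are described as naive, that is, close to the preimplantation epiblast. The transcription factors OCT4 (Pou5f1), SOX2 and NANOG form the core of the pluripotency network, to which ESRRB, TFCP2L1, KLF2, KLF4 and KLF5 are added in the naive state.

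Levels are given as FPKM, reads per kilobase of gene model scaled by depth, so that genes of different length can be set side by side. A value with ± is the mean and SD over the 3 libraries (n = 3). Values listed for 3 libraries are in the order control 1, 2 and 3. A gene is called on where it reached 1 FPKM in all 3 libraries, and off where it stayed under 0.1 FPKM in all 3. The libraries held 19.9 to 24.0 M reads recovered from the deposited values. Nothing was tested for significance, because no groups were compared. For a ratio between a pair of genes, 3 libraries cannot give a two-sided p below 0.25 in an exact permutation test, so the text asks for the same order in all 3 libraries.

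Among all listed genes, 11143 were on, which is 28.6%, and 20385 were off, which is 52.3%. Among the 20361 protein-coding genes 9910 were on (48.7%), 6987 were off (34.3%) and 3464 lay between. The level of a protein-coding gene that was on had a median of 10.4 FPKM. Few genes lay far above it: 538 genes had a mean of at least 100 FPKM and 37 at least 1000 FPKM, of which 12 were encoded by the mitochondrial genome and 14 encoded ribosomal proteins. The 10 most abundant genes held 11.9 ± 0.786% of the summed FPKM of a library, the top 100 held 33.0 ± 0.492% and the top 1000 held 63.3 ± 0.379%. FPKM weights short genes more than reads do, and the share of the top 100 in recovered reads was 18.8%.

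The identity of the cells was checked on marker genes first. All 19 genes of the naive list and all 15 of the general pluripotency list were on. Pou5f1 (ENSMUSG00000024406, chromosome 17, 35506018 to 35510772 on GRCm38) stood at 466, 421 and 479 FPKM. Sox2 (chromosome 3, 34650405 to 34652461) stood at 231, 236 and 209 FPKM and Nanog (chromosome 6, 122707489 to 122714633) at 268, 263 and 261 FPKM. The 3 libraries therefore differed little in these core factors, and the summed level of the naive list lay between 4840 and 5202 FPKM. Of fibroblast genes that would mark feeder cells, Col3a1, Dcn, Lum and Postn were at 0 in all 3 libraries, Col1a2 was at 0.00717 FPKM, Col1a1 at 0.137 FPKM and Pdgfrb at 0.493 FPKM, while Thy1 was on at 3.07, 3.33 and 1.75 FPKM. Of all 18 genes of the fibroblast and mesenchyme list 8 were off, 7 lay between and 3 were on (Fn1, Vim and Thy1), with a summed level of 309.7 to 407.9 FPKM, most of it from Fn1. Of the primitive endoderm markers, Gata6 was at 0.110 ± 0.0642 FPKM, Sox17 at 0.202 ± 0.105 FPKM, Pdgfra at 0.166 ± 0.0433 FPKM and Dab2 at 0.0376 FPKM, while Gata4 reached 1.74 ± 0.341 FPKM. Fgf5, the marker of primed epiblast, was off at 0.0481 ± 0.0166 FPKM, but Otx2 at 6.95 ± 2.03 FPKM and Pou3f1 at 1.33 ± 0.193 FPKM were on. Of the trophectoderm markers Elf5 (0.00256 FPKM) and Gata3 (0.0770 FPKM) were off, Cdx2 lay between at 0.206 FPKM and Eomes was on at 6.68 ± 0.531 FPKM. Of the 17 genes of the whole trophectoderm and placenta list 6 were off, 3 lay between and 8 were on, Tfap2c, Ascl2, Gata2 and Krt7 among them (24.2, 7.94, 5.25 and 3.297 FPKM), with a summed level of 80.7 to 90.02 FPKM. In these bulk libraries a low level in all cells and a higher level in a few cells cannot be told apart.

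The promoters of some of the genes described below are shown here as examples of genes that were on and off. The sequences are reference sequences, but the genes were classed as on or off by their levels in these libraries. Each is the stretch from 100 bases before to 20 bases after the outermost RefSeq start, 5′ to 3′ on the gene's strand (GRCm38.p6), with CpG dinucleotides in capitals and the letters TATAAA in capitals where they occur in the 50 bases before the start. Ptma, Pou5f1, Sox2, Tfcp2l1 and Nanog were on. Pax6, Alb, Lor and Hbb-bt were off.
Ptma (chr1:86526457-86526576, plus strand): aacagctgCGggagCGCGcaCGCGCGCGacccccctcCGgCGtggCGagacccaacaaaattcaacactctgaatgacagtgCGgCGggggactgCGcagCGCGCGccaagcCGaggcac
Pou5f1 (chr17:35505932-35506051, plus strand): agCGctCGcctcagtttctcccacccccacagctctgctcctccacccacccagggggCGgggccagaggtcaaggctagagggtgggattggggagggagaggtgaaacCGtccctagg
Sox2 (chr3:34649895-34650014, plus strand): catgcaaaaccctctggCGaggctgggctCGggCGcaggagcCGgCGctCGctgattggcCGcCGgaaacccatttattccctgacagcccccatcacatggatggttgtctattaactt
Tfcp2l1 (chr1:118627845-118627964, plus strand): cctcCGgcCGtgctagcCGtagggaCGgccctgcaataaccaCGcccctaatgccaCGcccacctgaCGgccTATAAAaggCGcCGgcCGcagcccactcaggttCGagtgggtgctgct
Nanog (chr6:122707389-122707508, plus strand): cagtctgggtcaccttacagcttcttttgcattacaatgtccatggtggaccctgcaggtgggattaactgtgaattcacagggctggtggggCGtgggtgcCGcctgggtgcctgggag
Pax6 (chr2:105668796-105668915, plus strand): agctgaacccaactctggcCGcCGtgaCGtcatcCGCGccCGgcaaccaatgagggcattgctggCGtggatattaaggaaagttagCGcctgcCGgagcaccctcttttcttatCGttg
Alb (chr5:90460770-90460889, plus strand): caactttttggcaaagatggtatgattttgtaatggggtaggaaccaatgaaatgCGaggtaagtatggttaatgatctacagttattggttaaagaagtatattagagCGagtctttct
Lor (chr3:92083123-92083242, minus strand): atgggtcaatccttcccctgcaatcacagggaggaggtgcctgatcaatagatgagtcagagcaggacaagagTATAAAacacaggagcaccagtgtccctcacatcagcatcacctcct
Hbb-bt (chr7:103813904-103814023, minus strand): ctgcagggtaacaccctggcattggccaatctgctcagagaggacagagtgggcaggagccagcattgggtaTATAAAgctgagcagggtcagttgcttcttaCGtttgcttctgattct

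Over the 300-base windows from which these were taken (250 bases before to 50 after the start), CpG content differed between the expression classes. RefSeq windows were matched for 15528 protein-coding genes, with a median of 14 CpG per window. The median was 22 for the 7906 genes that were on (lower to upper quartile 15 to 29), 12 for the 2488 between (5 to 23) and 3 for the 5134 that were off (1 to 7). Of the 9242 windows with at least 10 CpG, 74.7% belonged to genes that were on, against 15.9% of the 6286 windows with fewer. TATAAA occurred in the 50 bases before the start in 3.44% of all windows, in 1.18% of those of genes on and in 7.15% of those of genes off. These are descriptions of annotated starts, which need not be the starts used in these cells.

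**Figure D1:**
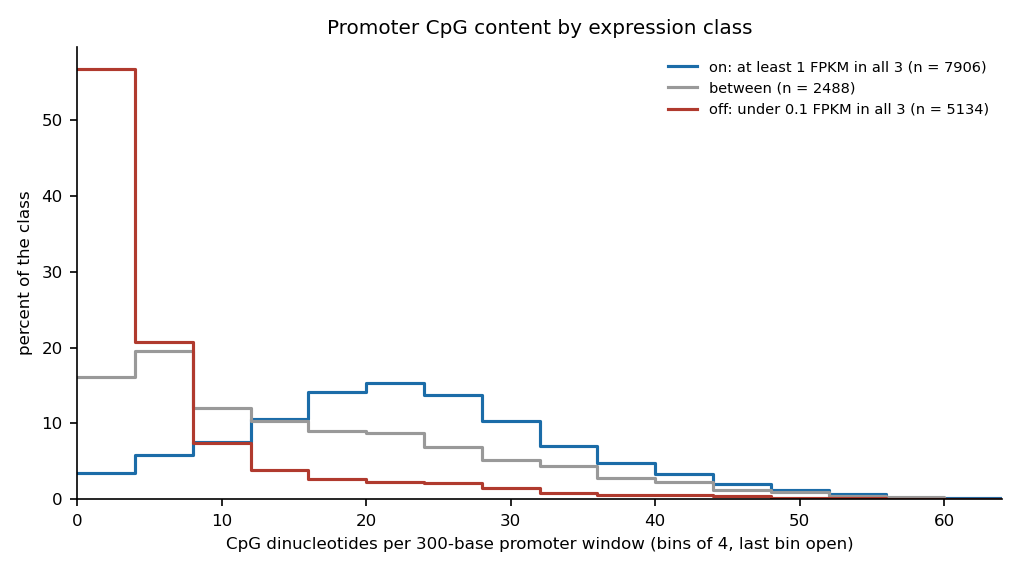
Distribution of CpG dinucleotides per 300-base promoter window (x axis, bins of 4) as a percent of each expression class (y axis), for protein-coding genes that were on, between or off in the 3 control libraries. Genes that were off crowd into the lowest bins (median 3), and genes that were on spread around a median of 22.

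The pluripotency genes were not uniform in this respect. In the 22 of 34 that were matched the median was 12.5 CpG per window. Klf4 had 40 CpG, Klf2 32, Fgf4 28, Sox2 27 and Zfp281 27, whereas Nr5a2 had 2, Spic 3, Nanog 4, Zscan10 4, Esrrb 7 and Tdgf1 7, and Pou5f1 lay between with 11. Tfcp2l1 (21 CpG) and Nr0b1 (14 CpG) held TATAAA. Ribosomal protein genes had a median of 21 CpG, none of the 56 matched held TATAAA, and 54 had at least 10 CpG.

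Among the most abundant transcripts, those of the mitochondrial genome came first. The genes encoding cytochrome c oxidase subunits were at 6919, 8855 and 7729 FPKM for mt-Co1, at 5698 ± 156 FPKM for mt-Co2 and at 4612 ± 573 FPKM for mt-Co3, and the ATP synthase gene mt-Atp6 was at 6204 ± 462 FPKM. Control 2 was the highest of the 3 libraries in mt-Co1. Mitochondrially encoded genes held 9.99 to 12.3% of summed FPKM but 3.57 to 4.45% of recovered reads, since their gene models are short. The value of mt-Atp8 (1998, 2267 and 3488 FPKM) is uncertain, because the gene overlaps mt-Atp6. The share of 75-base windows that also occur in other annotated genes was 99.5% for mt-Atp6, 99.5% for mt-Co2, 99.9% for mt-Co3 and 39.8% for mt-Co1, so these levels depend on how such reads were assigned.

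Of the nuclear genes the highest was Eef1a1 (ENSMUSG00000037742, chromosome 9, 78478449 to 78489151), which encodes the elongation factor that brings aminoacyl-tRNA to the ribosome, at 4681, 4318 and 4807 FPKM. The stem cell gene Dppa5a (ENSMUSG00000060461, chromosome 9, 78367052 to 78368177), which encodes an RNA-binding protein of pluripotent cells, was the third nuclear gene at 3147, 3441 and 3194 FPKM. Between and around them stood ribosomal protein genes, led by Rplp1 at 3434 ± 300 FPKM, Rps12 at 2701 ± 274 FPKM, Rpl4 at 2307 ± 81.2 FPKM and Rpl8 at 2287 ± 199 FPKM. Beyond the translation apparatus, which also included Eef2 at 1488 ± 59.1 FPKM, the 25 most abundant nuclear genes held 9 others, Dppa5a among them. Ptma, which encodes the chromatin-associated protein prothymosin alpha, was at 2004 ± 234 FPKM. The chaperone genes Hsp90ab1 (1997 ± 228 FPKM) and Hsp90aa1 (1017 ± 61.8 FPKM) and the nucleolar chaperone gene Npm1 (1215 ± 203 FPKM) followed. The metallothionein genes Mt2 (1482 ± 25.2 FPKM) and Mt1 (1093 ± 78.6 FPKM), whose products bind zinc and copper, were next to the pyruvate kinase gene Pkm (1383 ± 158 FPKM) and the ferritin light chain gene Ftl1 (1340 ± 44.6 FPKM). Dppa5a was the only gene of the 2 pluripotency lists among these 25.

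**Figure D2:**
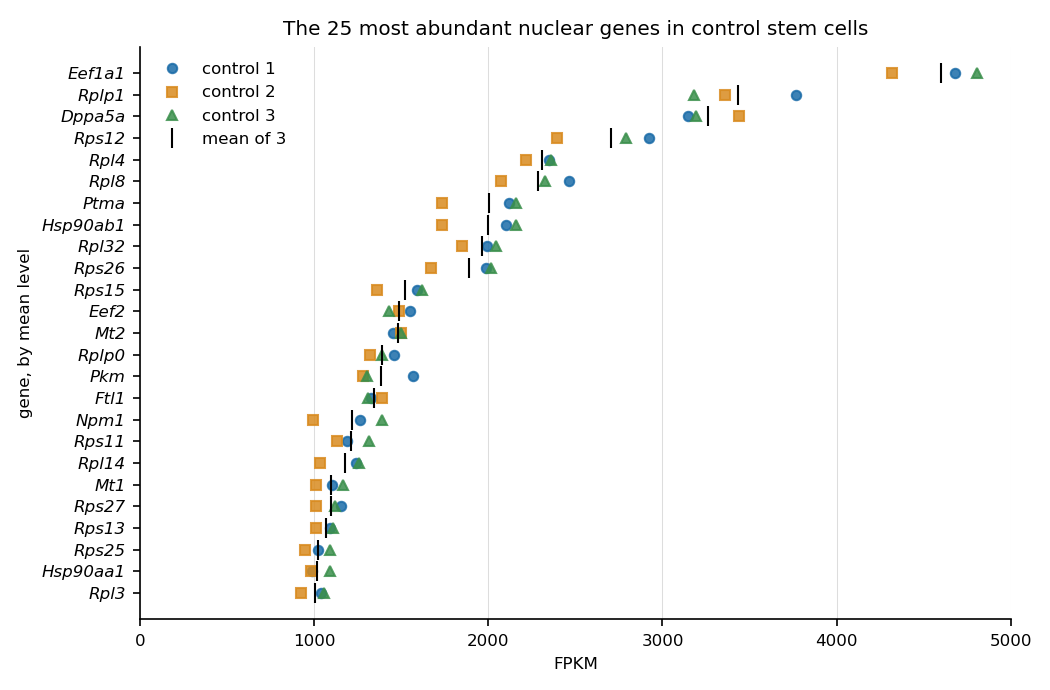
FPKM (x axis, linear) of the 25 most abundant nuclear genes (y axis, ordered by mean), with 1 symbol per control library and a bar for the mean of 3. Eef1a1, Rplp1 and Dppa5a have the highest means (4602, 3434 and 3261 FPKM), and control 2 is the lowest library for most ribosomal protein genes.

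All 76 ribosomal protein genes were on, with a median of 520 FPKM, and 49 of them were among the 100 most abundant genes. They held 14.4 ± 0.592% of summed FPKM and 6.71 ± 0.323% of recovered reads. Their range in FPKM was wide for subunits of a single particle, but the length of their gene models differed too. In a library 3 reads corresponded to at most 0.0208 FPKM for Rpl24, 0.0438 FPKM for Rpl35a and 0.312 FPKM for Rplp1. The models of Rpl24 and Rpl35a were thus longer than that of Rplp1, and the part of length in the range was not tested. Rplp1 was highest, and the lowest were Rpl35a at 94.5 ± 6.50 FPKM and Rpl24 (chromosome 16, 55966275 to 55971435) at 7.34, 7.02 and 8.48 FPKM. In Rpl24, 50.3% of the 75-base windows of its annotated transcripts also occurred in another annotated gene, and in Rplp1 45.9%, so both values depend on how such reads were assigned, which is not given in the sources used here. Control 2 was the lowest library for 72 of the 76 genes, with a median of 91.4% of a gene's mean over the 3 libraries. It was also the lowest for 53.5% of the 7842 genes with a mean of at least 5 FPKM, with a median of 96.7%. Of long non-coding RNAs, the snoRNA host gene Gas5 was at 141 ± 14.2 FPKM, the nuclear RNA Malat1 at 113 ± 18.9 FPKM and the snoRNA host gene Snhg1 at 84.2 ± 13.4 FPKM. These were not the highest, as 2410006H16Rik, annotated as a processed transcript, was at 247 ± 37.1 FPKM.

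Which paralogue was highest was asked in 133 gene families. A family was counted as led by 1 member where FPKM + 0.1 of that member was at least 2 times that of every other member in each library. This held in 82 families (61.7%). In 42 others the same member was highest in all 3 libraries by a smaller margin, and in 9 the highest member changed between libraries. The leading member was at least 10-fold above the next in all 3 libraries in 32 families and at least 100-fold in 10. In 59 families every member was on, and in 14 a single member was. The median log2 ratio of the highest to the second member was 1.65, and its SD over the 3 libraries had a median of 0.17, so that most margins were larger than the spread. In 17 of the 82 led families one of the top pair shared over 20% of its 75-base windows with other annotated genes.

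**Figure D3:**
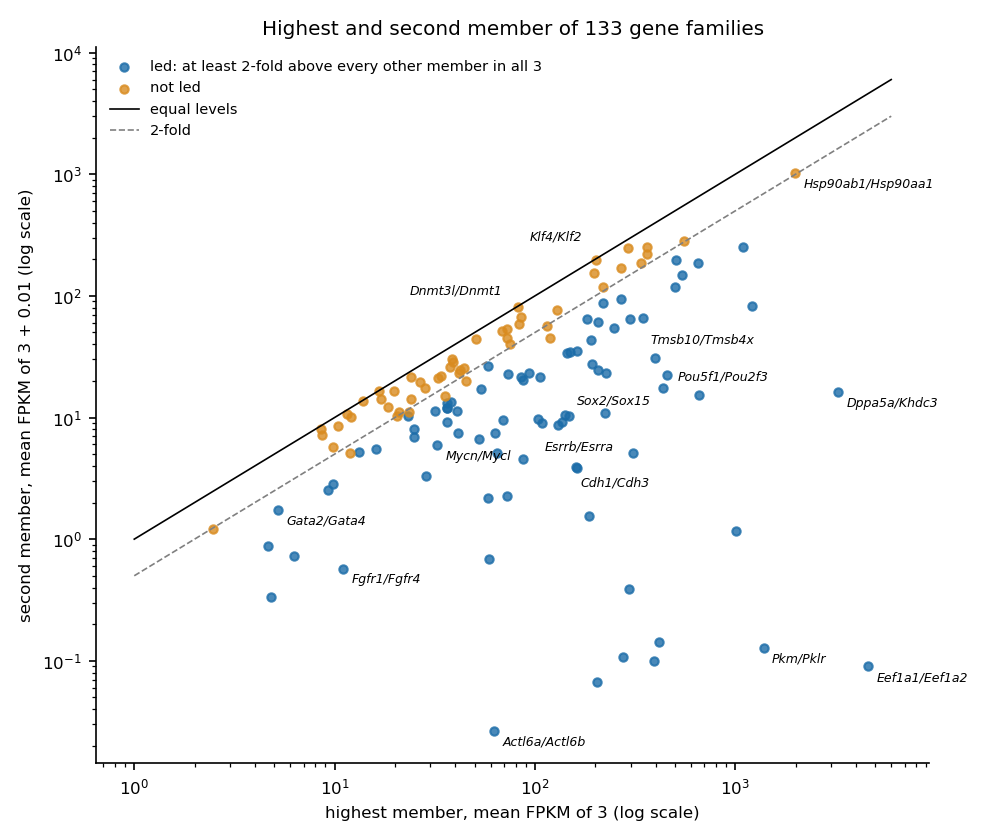
Mean FPKM of the highest member (x axis, log scale) against the second member (y axis, + 0.01, log scale) of 133 families, 1 point per family, with lines of equal levels and of a 2-fold ratio. Blue points are the 82 families led by 1 member, and those at the bottom right (Eef1a1, Pkm) are led by more than 100-fold.

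Some transcription factor families were led by 1 member. Pou5f1 at 455 ± 30.9 FPKM made up 93.0% of the summed FPKM of 15 POU genes, and the next, Pou2f3, was at 25.5, 23.4 and 18.5 FPKM. Sox2 at 226 ± 14.2 FPKM made up 79.9% of 19 SOX genes, ahead of Sox15 at 25.5, 27.5 and 16.3 FPKM. The orphan nuclear receptor gene Esrrb was at 130 ± 11.2 FPKM, against 8.66 ± 1.12 FPKM for Esrra, and Tfcp2l1 was at 144 ± 23.4 FPKM, against 34.1 ± 1.73 FPKM for Ubp1. Mycn led the MYC genes at 36.9, 26.8 and 33.6 FPKM, while Mycl was at 5.88 ± 0.765 FPKM and Myc at 1.14, 0.664 and 1.57 FPKM. Lin28a, which blocks let-7 processing, was at 87.3 ± 3.11 FPKM and Lin28b at 4.55 ± 0.361 FPKM. Tcf7, at 31.8 ± 2.97 FPKM, led the TCF/LEF factors ahead of the repressor gene Tcf7l1 at 11.4 ± 0.310 FPKM.

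The Kruppel-like, SALL, STAT and TEAD families had no single leader. Klf4 stood at 196, 232 and 177 FPKM and Klf2 at 210, 186 and 199 FPKM, and which was higher changed between libraries. Klf5 at 84.5 ± 11.0 FPKM was below both in all 3 libraries, and 13 of 17 Kruppel-like factors were on. Sall4 (38.7 ± 3.12 FPKM) and Sall1 (30.2 ± 3.299 FPKM) were in the same order in all 3 libraries with ratios of 1.15 to 1.39. Stat3 at 16.6 ± 0.967 FPKM, the effector of Lif, was level with Stat2 at 16.4 ± 0.773 FPKM. Of the partners of YAP and TAZ, Tead2 was at 26.7 ± 1.44 FPKM and Tead4 at 19.5 ± 1.40 FPKM, and Yap1 (18.1, 18.1 and 19.1 FPKM) exceeded Wwtr1 (12.4, 12.7 and 11.1 FPKM) 1.42- to 1.71-fold. Upstream, the kinase gene Lats1 at 4.65 ± 0.189 FPKM led Lats2 at 0.867 ± 0.0900 FPKM, where Lats2 shared 40.5% of its windows with other genes. Stk4 (17.0 ± 0.556 FPKM) and Stk3 (14.1 ± 1.61 FPKM) were near each other.

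The BAF remodelling complex had Smarca4 at 58.0 ± 2.53 FPKM against Smarca2 at 2.17 ± 0.392 FPKM, Smarcc1 at 69.2 ± 5.48 FPKM against Smarcc2 at 9.50 ± 0.453 FPKM, Smarcd1 at 58.6 ± 2.34 FPKM against Smarcd2 at 26.3 ± 1.14 FPKM, and Actl6a at 62.8 ± 7.62 FPKM with the neuronal subunit gene Actl6b off at 0.0166 FPKM. These are the paralogues of the form of the complex described in embryonic stem cells. Of the Polycomb genes, Ezh2 at 41.3 ± 4.37 FPKM led Ezh1 at 7.51 ± 0.872 FPKM, Cbx7 at 36.3 ± 0.925 FPKM led Cbx6 at 11.9 ± 0.770 FPKM, and Pcgf6 (33.8 ± 3.60 FPKM) was ahead of Pcgf2 (22.03 ± 0.284 FPKM) without leading. Other chromatin families had no leader either: Cbx1 (68.1 ± 9.13 FPKM) exceeded Cbx5 (51.7 ± 2.06 FPKM) 1.13- to 1.44-fold, Hdac1 (115 ± 6.56 FPKM) exceeded Hdac2 (56.1 ± 3.86 FPKM) 1.99- to 2.11-fold where Hdac1 shared 29.3% of its windows with other genes, and the order of the cohesin genes Stag1 (13.8 ± 1.63 FPKM) and Stag2 (13.6 ± 1.62 FPKM) changed. Tet1, which oxidises methylcytosine, was at 36.3 ± 1.29 FPKM and Tet2 at 12.1 ± 0.851 FPKM. The DNA methyltransferase family was headed by the catalytically inactive cofactor gene Dnmt3l (96.2, 77.1 and 74.5 FPKM) and the maintenance enzyme gene Dnmt1 (81.8, 75.9 and 84.2 FPKM), whose order changed. The de novo enzyme genes were lower, with Dnmt3b at 21.1 ± 1.88 FPKM and Dnmt3a at 3.19 ± 0.192 FPKM. The topoisomerase gene Top2a was at 136 ± 6.65 FPKM against Top2b at 9.17 ± 0.770 FPKM, and Hmga1 at 163 ± 15.5 FPKM against Hmga2 at 3.83 ± 0.503 FPKM, where Hmga1 shared 46.9% of its windows with other genes.

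Of the cyclin genes, Ccna2 (59.0 ± 4.69 FPKM) led Ccna1 (0.678 ± 0.307 FPKM), and Ccne1 (24.9 ± 4.24 FPKM) led Ccne2 (6.87 ± 1.60 FPKM). Ccnd1 at 37.4, 26.6 and 42.2 FPKM was above Ccnd3 at 14.9 ± 1.03 FPKM in all 3 libraries, by 1.65- to 2.96-fold. Ccnb2 (84.97 ± 4.16 FPKM) exceeded Ccnb1 (66.7 ± 5.54 FPKM) 1.23- to 1.31-fold, and Cdk4 (128 ± 17.4 FPKM) exceeded Cdk2 (75.9 ± 4.23 FPKM) 1.52- to 1.79-fold, so that neither family was led. The CDK inhibitor gene Cdkn1a was at 142 ± 17.1 FPKM, against 10.5 ± 0.653 FPKM for Cdkn1b, and Trp53 was at 72.5 ± 6.58 FPKM with Trp63 at 0. Among cell death regulators Mcl1 (108 ± 10.8 FPKM) led the anti-apoptotic genes over Bcl2l1 (9.08 ± 0.338 FPKM), and Bax (207 ± 12.7 FPKM) led Bak1 (24.5 ± 0.859 FPKM). All 16 genes of the DNA replication licensing list were on, from Mcm3 at 177 ± 10.5 FPKM to Cdc6 at 14.6 ± 2.33 FPKM. In all 16 control 2 was the lowest library, as it was for 53.5% of the 7842 genes with a mean of at least 5 FPKM.

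Cdh1, which encodes E-cadherin, was at 164, 148 and 172 FPKM and made up 97.1% of 7 classical cadherin genes, with Cdh3 next at 3.88 ± 0.679 FPKM. Ctnnb1 was at 149 ± 3.99 FPKM and Jup at 34.6 ± 0.707 FPKM. The claudin gene Cldn4 (106 ± 11.3 FPKM) was the highest of 18 paralogues, of which 5 were on. Among matrix receptors the alpha subunit gene Itga6 (23.4 ± 2.61 FPKM), a laminin receptor, was above Itga5 (11.2 ± 0.984 FPKM), a fibronectin receptor, in all 3 libraries, and Itgb1 was at 41.8 ± 5.27 FPKM. Lama5 at 53.6 ± 9.27 FPKM led Lama1 at 17.0 ± 2.51 FPKM. Of the cytoskeletal genes Actb was at 655 ± 128 FPKM, Tubb5 at 541 ± 51.4 FPKM, Cfl1 at 505 ± 86.1 FPKM and Tmsb10 at 396 ± 47.5 FPKM, the last against 30.7 ± 5.73 FPKM for Tmsb4x. The B-type lamin gene Lmnb1 was at 193 ± 22.2 FPKM and Lmnb2 at 27.5 ± 2.26 FPKM. The alpha tubulin genes Tuba1b and Tuba1a share 64.3% and 68.2% of their windows with other genes, and their levels of 182 and 64.3 FPKM are uncertain for that reason.

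Of the genes of the pathways on which the medium acts, the Lif receptor pair lay near the median of protein-coding genes on (10.4 FPKM). Il6st (gp130) was at 10.4 ± 0.630 FPKM, above Lifr at 8.58 ± 0.296 FPKM in all 3 libraries. The negative feedback gene of the pair, Socs3, was at 67.4, 69.7 and 53.1 FPKM and led the SOCS genes. Of the JAK kinases Jak3 was highest at 20.5 ± 1.22 FPKM, above Tyk2 at 10.2 ± 1.12 FPKM, Jak1 at 7.79 ± 0.350 FPKM and Jak2 at 2.09 ± 0.232 FPKM. All 14 genes of the LIF/STAT3 list were on. Of the targets of the inhibitors, the MEK genes Map2k1 and Map2k2 were at 44.4 ± 1.47 and 25.6 ± 3.11 FPKM, and the GSK3 genes were led by Gsk3a at 36.3 ± 0.359 FPKM over Gsk3b at 9.09 ± 0.224 FPKM. Fgf4, the autocrine ligand of these cells, was at 104 ± 4.36 FPKM, and Fgfr1, at 11.0 ± 0.859 FPKM, was the only 1 of 4 FGF receptor genes that was on. Of 17 ERK output genes 12 were on and none was off, where 48.7% of all protein-coding genes were on. Their levels were uneven, with Etv5 at 72.5 ± 2.49 FPKM and Spry2 at 50.9 ± 4.88 FPKM, but Dusp6 at 3.87 ± 0.650 FPKM, Egr1 at 2.05 ± 0.621 FPKM and Spry4 at 0.722, 0.325 and 1.39 FPKM. Of 16 Wnt output genes 9 were on, beside the same 48.7%, and 2, Dkk1 and Lgr5, were off. Axin2 was at 16.3 ± 0.599 FPKM, Cdx1 at 12.0 ± 0.881 FPKM and Notum at 28.5, 14.1 and 32.0 FPKM. Wnt ligand genes themselves were low, with Wnt5b at 2.47 ± 0.437 FPKM the only 1 of 19 that was on. Of 16 YAP/TAZ output genes 12 were on, again beside 48.7%, led by Ajuba (38.1 ± 4.44 FPKM) and Amotl2 (21.6 ± 2.74 FPKM), with Ctgf at 7.33 ± 0.752 FPKM, Cyr61 at 3.52 ± 0.215 FPKM and Ankrd1 off at 0.00973 FPKM.

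All 20 genes of the glycolysis list were on. Pkm was above its liver and red cell paralogue Pklr (0.118 ± 0.00712 FPKM), Aldoa (658 ± 116 FPKM) above Aldoc (15.4 ± 3.15 FPKM), Hk2 (73.6 ± 12.0 FPKM) above Hk1 (22.9 ± 3.75 FPKM), and Eno1 (310 ± 47.0 FPKM) above Eno3 (5.14 ± 0.230 FPKM). Slc2a3 at 219 ± 30.9 FPKM exceeded the other main glucose transporter gene, Slc2a1, at 119 ± 34.8 FPKM in all 3 libraries, and Ldha at 340 ± 76.6 FPKM exceeded Ldhb at 186 ± 4.59 FPKM. All 16 genes of threonine and one-carbon metabolism were on. Tdh, the threonine dehydrogenase of mouse stem cells, was at 286, 280 and 302 FPKM, Shmt2 at 109 ± 9.60 FPKM and the glycine decarboxylase gene Gldc at 85.8 ± 5.23 FPKM. Of cytochrome c oxidase subunits with tissue forms, Cox4i1, Cox6a1 and Cox8a (296, 275 and 393 FPKM) were the only members on in their families. In the other COX families every member was on, with Cox6b2 at 65.3 ± 7.91 FPKM below Cox6b1 at 346 ± 23.0 FPKM, and Cox7a1 at 22.1 FPKM below Cox7a2 at 197 ± 11.7 FPKM.

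Lineage genes were read against the share of all protein-coding genes that were off (34.3%) or on (48.7%). Outside the pluripotency lists, 24 lists of lineage and cell type genes held 330 genes, of which Dppa3 and Gbx2 also stand in the naive list. Of the 330, 167 were off (50.6%), 100 lay between and 63 were on (19.1%). Their median was 0.0584 FPKM, and 70 had no recovered read in any of the 3 libraries. The limit that a count of 0 allows, 3 reads in a library, corresponded to a median of 0.0638 FPKM over the off genes. For 47 of the 167 it was above 0.1 FPKM, up to 0.354 FPKM, and for those a level up to that limit was not detectable at this depth. These limits cover counting error only.

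**Figure D4:**
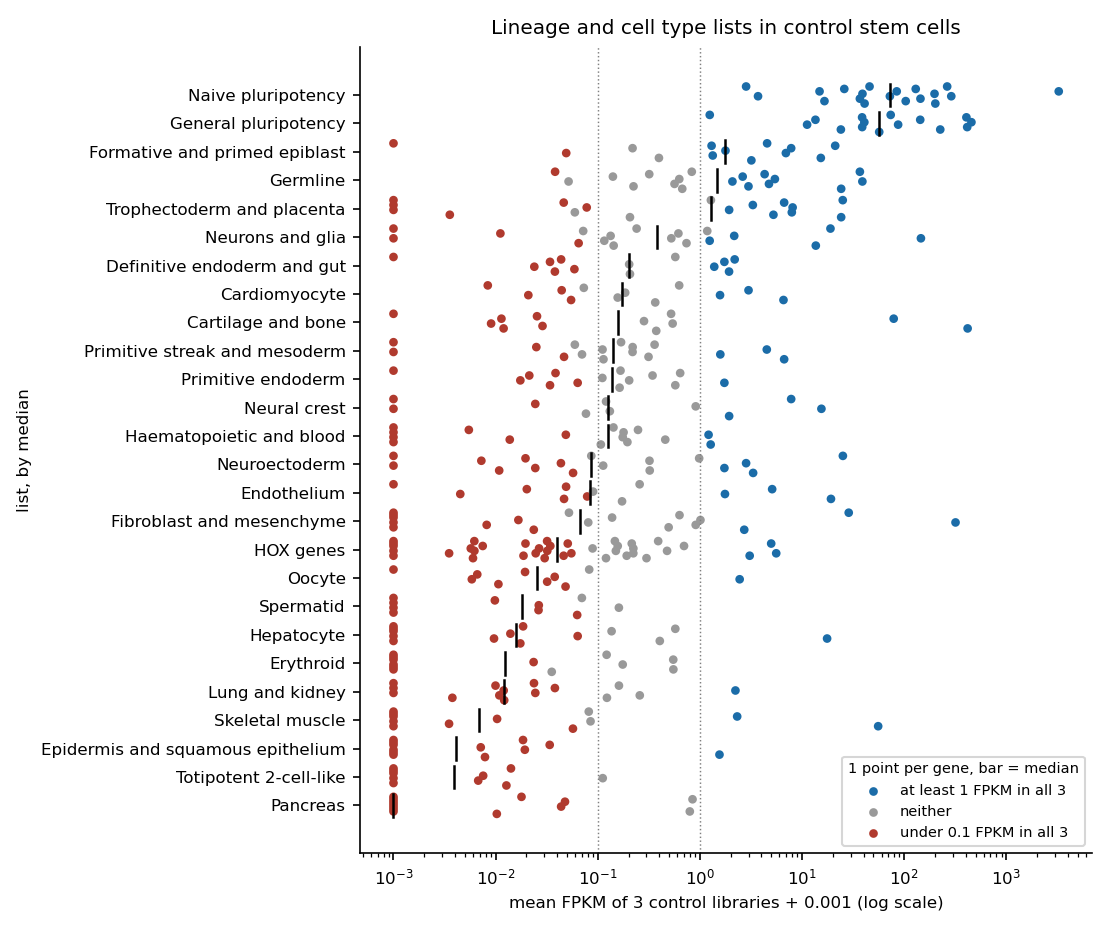
Mean FPKM over the 3 control libraries (x axis, + 0.001, log scale) of each gene of 26 lineage and cell type lists (y axis, ordered by median), coloured by class, with dotted lines at 0.1 and 1 FPKM and a black bar at the median. The 2 pluripotency lists lie wholly above 1 FPKM, and points at the left edge are genes at 0.

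The lists with the highest share of genes off were epidermis (11 of 12), 2-cell-like (9 of 10), pancreas (11 of 13), oocyte (8 of 10) and spermatid (8 of 10). The 2-cell-like list marks a rare totipotent-like state of stem cell cultures, and Zscan4c and Tcstv3 were at 0, Zscan4d at 0.00655 FPKM, with only Zfp352 between at 0.111 FPKM. Of the 13 genes listed for this state, Zscan4a, Dux and Eif1a-ps2 were not matched and have no value here. How reads shared between similar gene copies were assigned is not given, so low values in this list may miss such reads. Krt5, Krt14, Flg and Trp63 of stratified epithelium, Ins1, Ins2, Gcg and Prss1 of pancreas, and Alb, Ttr and Fgb of liver were off, and the last 7 were at 0 in all 3 libraries. The globin genes Hbb-bs, Hbb-bt, Hbb-y and Hba-x were at 0. The myogenic factor genes Myod1, Myf5 and Myf6 were at 0. Of 38 HOX genes, which pattern the body axis, 22 were off, 13 lay between, such as Hoxa7 at 0.222 FPKM and Hoxb4 at 0.214 FPKM, and 3 were on. Those on were Hoxc12 (6.06, 5.95 and 4.75 FPKM), Hoxc13 (4.86, 5.63 and 4.48 FPKM) and Hoxc4 (3.46, 2.91 and 2.84 FPKM), all of the same cluster on chromosome 15. In neuroectoderm 8 of 17 were off, including Pax6 (0.00625 FPKM) and Neurog2 (0). Sox1 lay between, with a mean of 0.982 FPKM.

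Off genes came in classes of promoter. Of the 40 off genes of the HOX, neuroectoderm, primitive streak, definitive endoderm and neural crest lists, 29 had a matched window, with a median of 15 CpG and TATAAA in 1 (3.45%). Of the 89 off genes of 11 differentiated-cell lists, 63 had one, with a median of 4 CpG and TATAAA in 14 (22.2%). At least 10 CpG were present in 23 of the 29 (79.3%) and in 7 of the 63 (11.1%), against 17.8% of all off genes matched. Pax6, with 18 CpG in its window, and Lor and Hbb-bt, with 1 CpG each and TATAAA, are the examples shown above. This grouping of lists was made after the levels were known and is a description without a test.

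Above 10 FPKM in all 3 libraries were 18 genes of the 24 lists. The highest was Spp1 (ENSMUSG00000029304, chromosome 5, 104435118 to 104441050), which encodes the secreted phosphoprotein osteopontin, at 393, 458 and 403 FPKM, above Nanog in all 3 libraries. Fn1, which encodes the matrix protein that also coated the plates, was at 305, 383 and 267 FPKM. Stmn2, a tubulin-binding protein gene of the neuronal list, was at 154, 142 and 142 FPKM, whereas Dcx of the same list was at 0 and Rbfox3 at 0.133 FPKM. Mylpf, the fast skeletal myosin light chain gene, was at 50.4, 47.9 and 68.7 FPKM while Myh1 and Tnnt3 were at 0. Alpl, the alkaline phosphatase gene of the bone list whose activity is also used to stain stem cells, was at 79.0 ± 4.18 FPKM, and of the same list Ibsp was at 0 and Runx2 and Sp7 were off. Kit (39.0 ± 2.19 FPKM), Tfap2c (24.2 ± 0.855 FPKM) and Dppa3 (36.8 ± 6.34 FPKM) of the germline list, and Pecam1 (19.2 ± 1.44 FPKM) of the endothelial list, were on, while the endothelial genes Cdh5 and Emcn were at 0.00351 FPKM and 0. The oligodendrocyte factor genes Olig2 (25.9, 21.3 and 28.1 FPKM) and Olig1 (13.9, 15.2 and 11.8 FPKM), which are neighbours on chromosome 16, were on together. Apoa2 was at 17.6 ± 2.48 FPKM with Alb at 0 and Apoa1 at 0.0626 FPKM. Of the simple-epithelial keratin genes Krt8 was at 25.04 ± 1.81 FPKM and Krt18 at 8.09 ± 1.01 FPKM. Over the whole lists, 2 of 12 bone genes were on and 6 off, and 2 of 12 skeletal muscle genes were on and 8 off. In the endothelial list 3 of 12 were on and 6 off, and in the liver list 1 of 14 was on and 10 off. The neuronal and glial list had 5 of 18 on and 4 off (22.2%), less than the 34.3% of all protein-coding genes that were off. The intermediate filament gene Vim (30.4, 17.9 and 37.6 FPKM) and the tubulin gene Tubb3 (18.8, 11.3 and 26.8 FPKM) were on in all 3 libraries and lowest in control 2.

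The epiblast list of later stages had 9 of 13 on, with Dnmt3b, Zic2 (17.7, 10.4 and 17.7 FPKM) and Foxd3 (7.83 ± 1.01 FPKM) highest and Fgf5 and Cer1 off. In the primitive streak list Eomes (6.68 ± 0.531 FPKM), T (5.63, 3.33 and 4.58 FPKM) and Gsc (1.58 ± 0.591 FPKM) were on, and Mesp1, Mixl1 and Tbx6 were not. In the germline list 9 of 18 were on and 1 was off, with Ddx4 at 4.74 ± 1.09 FPKM and Dazl at 2.08 ± 0.421 FPKM. Near the thresholds, Gad2 (0.0964 FPKM in its highest library) and Prm1 (0.0962) lay just inside off, Hba-a1 (0.103) and Ets1 (0.103) just outside, Spi1 (1.05 FPKM in its lowest library) and Mbp (1.01) just inside on, and Esx1 (0.908) just outside.

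Of the Y-linked genes Ddx3y was at 10.3 ± 0.910 FPKM and Eif2s3y at 9.85 ± 1.00 FPKM, while the testis-determining gene Sry was at 0. Of 833 X-linked protein-coding genes 306 were on (36.7%), against 9587 of 19397 autosomal genes (49.4%), and the median level of those on was 8.83 FPKM for the X and 10.5 FPKM for the autosomes, with ratios of the medians of 0.839, 0.763 and 0.871 in the 3 libraries.

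The 3 control libraries were close to each other. Pearson's r of log2 levels across genes, which are not independent replicates, was 0.990 for control 1 and 2, 0.989 for 1 and 3 and 0.979 for 2 and 3. Of the 7842 genes with a mean of at least 5 FPKM, the median coefficient of variation was 7.68%, and 78 (0.995%) were at least 2-fold apart between the highest and lowest library. This count fell to 15 without control 3, to 36 without control 2 and to 58 without control 1. The most variable gene was Lrrc17 (chromosome 5, 21543559 to 21575904), which encodes a secreted leucine-rich repeat protein, at 0.307, 0.0206 and 15.3 FPKM, from 16, 1 and 649 recovered reads. The pseudogene Rps25-ps1 (4.71, 2.62 and 58.6 FPKM), the histone gene Hist1h2ap (3.39, 4.35 and 38.9 FPKM) and 4930509G22Rik (2.76, 2.15 and 12.7 FPKM) were also high in control 3 only. Igfbp4 (18.0, 11.5 and 3.35 FPKM) and the immediate-early gene Ier3 (14.3, 8.38 and 3.60 FPKM) were lowest in it. At the other end, Ccny was at 16.6 FPKM in each library, and Oxsr1, Ubqln4, Ap3m1 and Vps18 had coefficients of variation of 0.161 to 0.190%, below the 1.39 to 3.17% that counting their reads alone would give.

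The spread of the pluripotency genes was close to that of all genes. The 31 with a mean of at least 5 FPKM had a median coefficient of variation of 8.06%, from 0.731% for Tcl1 to 18.3% for Zfp42. Glycolysis genes had a common order: 17 of 20 were highest in control 1, 15 were lowest in control 3 and none was highest there. Of the 7842 genes 21.4% were highest in control 1, 50.8% were highest in control 3 and 24.9% were lowest in control 3. The summed level of the list was 5280, 4395 and 4150 FPKM. Slc2a1 stood at 156, 113 and 87.0 FPKM, Ldha at 428, 304 and 288 FPKM and Slc16a3, the lactate exporter gene, at 18.9, 13.2 and 7.71 FPKM. LIF/STAT3 genes had another order, with 9 of the 11 at or above a mean of 5 FPKM highest in control 2 (27.8% of all genes), among them Klf4, Tfcp2l1 and Socs3. The Nodal target genes Lefty1 (17.2, 8.70 and 26.7 FPKM) and Lefty2 (104, 78.3 and 174 FPKM) were lowest in control 2 and highest in control 3.

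**Figure D5:**
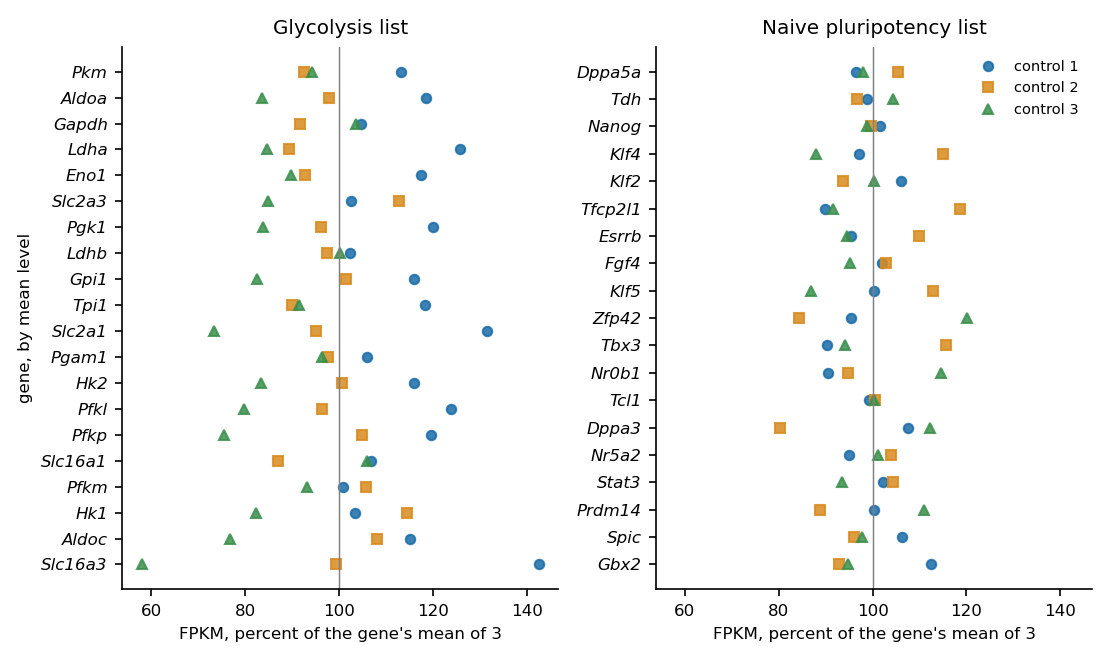
FPKM in each control library as a percent of the gene's mean over the 3 (x axis) for the glycolysis list (left) and the naive pluripotency list (right), genes ordered by mean level on the y axis. Control 1 lies right of 100% for all glycolysis genes, and no library does so for all naive genes.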

How the data were processed

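Poly(A)-selected RNA of the 3 control libraries was read with a directional kit, per the labels' protocols. The authors deposited FPKM values for each gene in each library. Build mm10 (GRCm38), TopHat2 2.1.1 and HTSeq 0.6.1 stand in the submitters' processing notes beside DESeq2, without roles. Not given in the sources used here are the annotation release, the strand setting, filters and the treatment of multi-mapped reads. Reads of overlapping genes, antisense genes and near-identical copies may therefore be split or lost.

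The values of all 24621 genes above 0 in any of the 9 libraries were whole multiples of the worth of 1 read (tolerance 0.001), which gave the reads behind each value. The columns of the other groups were used only for this step and to ask which genes had no read at all. As the smallest fitting whole numbers were taken, reads with a common divisor could be underestimated. The recovery and the family rule were tested on simulated data.

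Gene IDs, biotypes and coordinates came from GENCODE M21 by symbol (35582 of 38940 matched 1 entry). Gene model length was within 2% of its merged exons for 65.2% of 22778 genes. The share of 75-base transcript windows found in another annotated gene was counted on GENCODE M21 transcripts for 1127 genes. Promoter windows came from RefSeq (GRCm38.p6). CpG and TATAAA were counted on the gene's strand, where CpG reads the same on both strands and the motifs do not overlap. Python 3.11.15, pandas 2.3.3 and numpy 2.4.6 were used.

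The 133 families, 26 lineage lists and 8 pathway lists (1159 of 1164 entries matched) and the members described were chosen with earlier results of these data known. Genes were named by rule: the 25 most abundant nuclear genes, the top pair of each family, the highest 3 and all on members of lineage lists, pathway members, the 10 most and 5 least variable genes with a mean of at least 5 FPKM, members nearest the thresholds, and the extreme ribosomal protein genes. Other family and list members and the long non-coding RNAs named were chosen after their values were seen. Alternatives were other thresholds, pseudocounts and folds, rescaled values, and each library left out.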

Additional observations from a re-analysis of the deposited data

How the results depend on the processing

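No paired analysis was possible because the results come from no test and from a single group. The counts of genes on (11143), families led (82) and lineage genes off (167), and the share of the top 100 genes (33.0%), kept within 1.5 times of their value, or within 1 SD for the share, when each library was left out. The count of genes at least 2-fold apart (78) ranged from 15 to 58 when 1 library was left out, which compares fewer libraries. It was 443 with a mean of at least 1 FPKM, 17 with a mean of at least 20 FPKM and 378 at a 1.5-fold threshold. FPKM was also rescaled to the same sum in each library. That sum was above the summed FPKM of every library (358973 to 385060), so all values rose while the thresholds stayed fixed. The count on the rescaled values was 234, with genes of a lower deposited mean let in. The part of equalising the libraries in this count was not tested separately. The share of the 100 most abundant genes was 18.8% of recovered reads and 26.3% without mitochondrially encoded genes. Families led by 1 member numbered 50 at a 4-fold threshold, and 65 without families sharing over 20% of windows, an alternative chosen after seeing the data. On the rescaled values 12983 genes were on, 117 lineage genes were off and 82 families were led. The on and off counts used the unchanged thresholds, which then corresponded to lower deposited levels. These counts therefore do not isolate the scaling between libraries. Depth limits the off genes with few possible reads, the reading of which stands beside their count.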
